A study of Mus musculus with 24 samples.

Results

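Brain endothelial cells that had taken up exosomes from knockout donor cells were compared with endothelial cells that had taken up wild type (WT) exosomes. The comparison used 7 libraries of the 24 samples named in the labels: 2 for WT (lettered A and B), 3 for KO1 (A to C) and 2 for KO2 (B and C), all in 1 deposited table. Every gene whose value varied across the 10 endothelial libraries of that table was kept, which left 14164 of 20555 genes. WT C and KO2 A were not analysed here. Mouse brain slices received exosomes at 5 µg per slice for 2 days, the vesicles carried the green membrane dye PKH67, and CD45-negative, CD31-positive cells with dye signal were sorted. Slices of the 3 PBS libraries received no vesicles, and these libraries stand beside the comparison as a reference. The labels do not state the age or strain of the mice, the donor cell line, the gene knocked out in KO1 and KO2, or what the letters A, B and C stand for. The series title names tumour exosomal CEMIP, and no label ties it to KO1 or KO2. PBS libraries carry the same exosome-positive label as the others. Nothing states whether libraries of a group came from separate animals, so the p-values below measure the spread between these libraries, which may be technical.

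Exosomes are small membrane vesicles that carry proteins and RNA from one cell to another, and tumour exosomes taken up by blood vessels of the brain are studied as a preparation of the tissue for metastasis. CEMIP binds hyaluronan, a long sugar polymer of the extracellular matrix, and takes part in its breakdown. Brain endothelial cells form the blood-brain barrier through tight junctions, efflux pumps and selective transporters, and they also answer inflammatory signals with cytokines, interferon-induced genes and antigen presentation.

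The libraries held about 25700000 to 28000000 normalised counts, from an estimated 25800000 to 35600000 reads in the 7 exosome libraries and 18300000 to 29300000 in the PBS libraries. Levels are normalised counts recovered from the deposited log2 values. Differences are on that deposited log2 scale, where they are smaller than a log2 fold change, most of all for weak genes, and SE is their standard error in limma. In the exosome libraries the 12 endothelial markers came to 253283 to 315073 normalised counts together, and 11 or 12 of them reached 100 counts. Pecam1, which encodes the sorted antigen CD31, stood at 51613 to 56200.4 with WT exosomes and at 42873 to 54125 with knockout exosomes, lower on average with KO1 and with KO2. The libraries differed in how many genes they listed at 0. Of 5566 genes with at least 500 counts in every PBS library, 172 were listed at 0 in WT A and 172 in KO1 A, against 38 in WT B, 57 in KO1 C, 69 in KO2 C, 32 in KO2 B and 8 in KO1 B. These genes were well measured in every PBS library, so a 0 is given below as a listed value and not as proof that a transcript was missing.

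**Figure D1:**
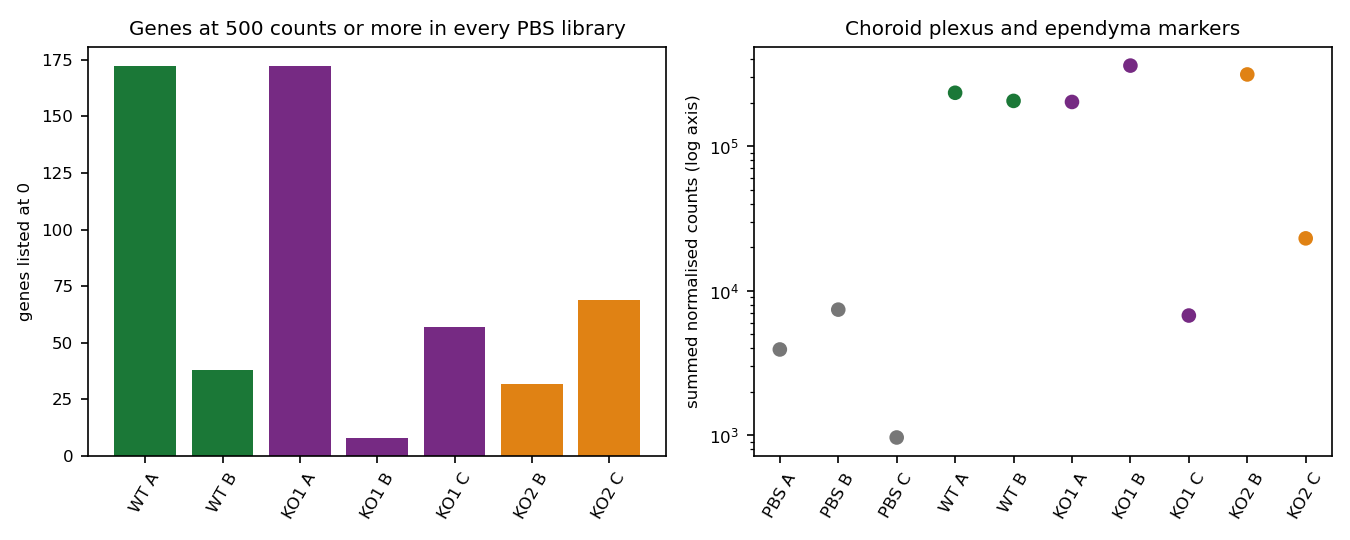
Left, genes with at least 500 normalised counts in every PBS library that were listed at 0 in each exosome library (bars, vertical axis from 0). Right, summed normalised counts of 12 choroid plexus and ependyma markers in each library (points, log axis). WT A and KO1 A each listed 172 such genes at 0, and KO1 C and KO2 C held far fewer choroid plexus counts than the exosome libraries lettered A or B.

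Few genes separated knockout from WT exosomes. With the mean of KO1 and KO2 set against WT, 6 of 14164 genes passed limma at an adjusted p of 0.05 (0.0424%): Zfp46 rose, and Arhgdig, Tns3, Ptgs1, Zbtb18 and Knstrn fell. At an unadjusted p under 0.05 there were 553 higher and 547 lower genes. KO1 alone against WT gave 1 call (0.00706%), Arhgdig. KO2 alone gave 3 (0.0212%), which were Zfp46 and Qrfpr higher and Arhgdig lower. A test of any difference among WT, KO1 and KO2 called 5 genes (0.0353%), adding Cd33 and Mutyh. All 5 knockout libraries lay above both WT libraries in 492 genes (3.47%) and below both in 551 (3.89%). These are counts with no test. With 5 against 2 libraries, shares of this size can arise from the order of the libraries alone. The 6 calls depended on the libraries in the fit, and without the C libraries none was left, with 1144 genes at an unadjusted p under 0.05. With the letters A, B and C as a block, none of the tests gave a call. The knockout mean then had 983 genes at an unadjusted p under 0.05. Without PBS A, PBS B or PBS C the count was 2, 2 or 1. Without WT A or WT B it was 152 or 100, in fits where WT holds a single library that is assumed to vary like the others. Without KO1 A, KO1 B or KO1 C it was 1, 5 or 1. With the PBS libraries left out it was 0, with 588 genes at an unadjusted p under 0.05. Fits without the C libraries, KO2 B or KO2 C leave KO2 a single library, assumed to vary like the others.

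Zfp46, a zinc finger gene (gene 22704, chromosome 4, 136284168 to 136293942, GRCm38.p6), was the gene that rose. It was listed at 0 and 0 normalised counts in WT A and B, and held 1304, 1179 and 1787 with KO1, 2740 and 2415 with KO2 and 894, 1126 and 1189.7 with PBS. Every knockout library lay far above both WT libraries, KO2 stood higher than KO1, and the PBS libraries lay with the knockouts. The difference from WT was 0.63 (SE 0.0653, limma adjusted p = 0.0361) for the knockout mean, 0.54 for KO1 and 0.73 for KO2, so both knockouts were higher. The adjusted p ran from 0.000466 to 0.344 over the alternatives, with the highest value when only the exosome libraries were fitted. Among fits without 1 library, Zfp46 missed the threshold without PBS A, PBS B, PBS C, KO1 A or KO1 C, at 0.0854 to 0.131.

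Zfp46 shared its pattern with 16 other genes. In all, 17 genes were listed at 0 in both WT libraries and held at least 100 counts in all 5 knockout libraries, and 14 of these also held at least 100 in every PBS library. Map4k2, a kinase upstream of the JNK stress pathway, was one of them. Its counts were 0 and 0 with WT, 1349, 2165 and 1137 with KO1, 1936 and 1597 with KO2 and 3113, 2143 and 2294 with PBS. KO1 and KO2 overlapped each other and lay above WT (difference 0.58, SE 0.0747, limma adjusted p = 0.0598), which missed the threshold. Fxyd6, a regulator of the sodium pump, was likewise listed at 0 in both WT libraries and held 975, 418 and 801 with KO1 and 1455 and 1275 with KO2, against 315 to 362 with PBS. Here the knockouts exceeded the PBS libraries as well, and KO2 exceeded KO1.

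Other genes listed at 0 with WT exosomes were named by their p or their difference. Dis3l2, an exonuclease that degrades uridylated RNA, held 924, 800.1 and 623 with KO1 and 505 and 1107 with KO2, above the 207 to 246 of the PBS libraries. Ezh2, the enzyme that methylates histone H3 in the Polycomb complex PRC2, held 424, 137 and 418 with KO1 and 408 and 546 with KO2, against 21.8 to 65.8 with PBS. Ddx20, a helicase of the SMN complex that assembles splicing particles, held 601, 613 and 444 with KO1 and 452 and 661 with KO2. For these 3 genes KO1 and KO2 were both higher than WT, by 0.40, 0.28 and 0.34 for the knockout mean, and none passed (limma adjusted p of 0.172 to 0.266). Med14 and Med23, subunits of the Mediator complex that links transcription factors to RNA polymerase II, followed them. Med14 was listed at 0 in both WT libraries and ranged from 189.6 in KO2 C to 3131 in KO2 B. Med23 stood at 4.2 and 0.9 with WT, 2182, 668 and 372 with KO1 and 1798 and 1335 with KO2. Both genes were higher with KO1 and with KO2, and the spread among knockout libraries was wide (SE 0.153 and 0.104).

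**Figure D2:**
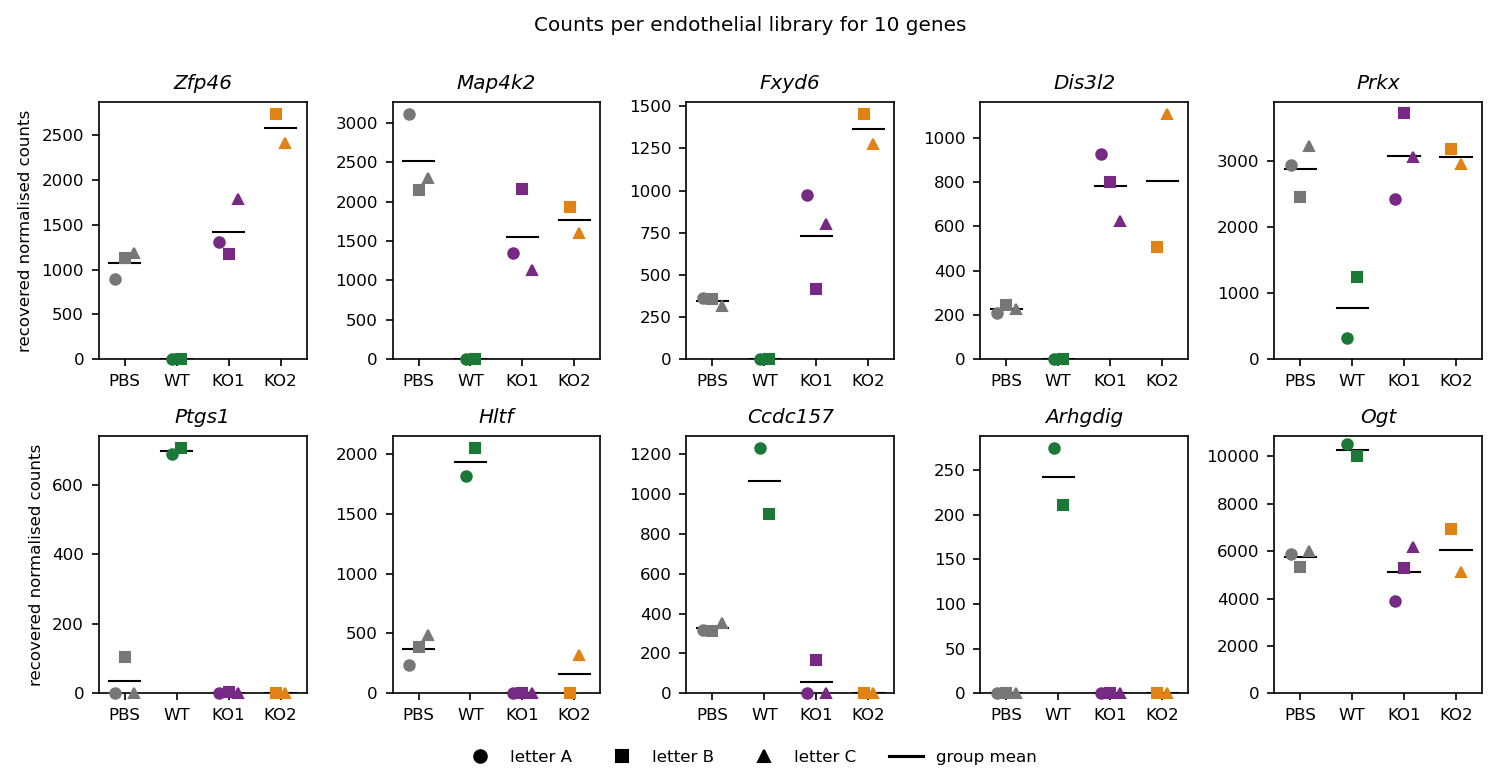
Recovered normalised counts (vertical axes from 0, a scale per gene) of 10 genes in each endothelial library, by group, with the letter given by the marker and the group mean by a line. The top row shows genes higher with both knockouts than with WT, and the bottom row genes lower with both.

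The remaining genes of smallest p on the higher side were at or near 0 with WT exosomes, or held a smaller count than with the knockouts. Prkx, a catalytic subunit related to protein kinase A, stood at 318 and 1245 with WT, 2428, 3727 and 3056 with KO1 and 3183 and 2948 with KO2. The unconventional myosin Myo1d stood at 472 and 3040.1 with WT, 5842, 6216 and 8361 with KO1 and 5896 and 7149 with KO2. In both genes all knockout libraries lay above both WT libraries, and WT A was the lowest. The gene 2510009E07Rik was present in every library, with 2544 and 2074 for WT, 4679.8, 3665 and 5309 for KO1 and 5468 and 6763 for KO2 (difference 0.34, SE 0.0641, limma adjusted p = 0.215). Its groups did not overlap, and PBS lay between 4444 and 4907, inside the range of the knockouts. Uba6, which activates ubiquitin, stood at 516 to 1559 with the knockouts against 13.8 and 0 with WT. Snx27, which returns membrane proteins from endosomes to the cell surface, ranged from 424 to 1064 against 0 and 5. The others were Txndc11 (445 to 1418 against 0 and 14.6), Hnrnpa3 (1451 to 2242 against 187 and 0), Aatk (572 to 1259 against 56.1 and 1.7) and Mthfsd (203 to 485 against 0 and 3.4). Hnrnpa3 has near-identical processed copies, so its count is uncertain. Of these 15 genes 1 passed the test, and for all 15 KO1 and KO2 both lay above WT and the PBS mean did too. They were chosen by the p of the knockout mean, which favours such agreement, and both knockouts were set against the same 2 WT libraries.

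On the lower side Ptgs1 fell. Ptgs1 encodes cyclooxygenase 1, the constitutive enzyme of prostaglandin and thromboxane synthesis (gene 19224, chromosome 2, 36216742 to 36258593, GRCm38.p6). It held 687 and 705 counts with WT exosomes, 0, 4.3 and 0 with KO1, 0 and 0 with KO2 and 0, 104 and 0 with PBS. Both WT libraries thus stood far above all the others, and the knockouts lay with PBS. The difference was -0.38 (SE 0.0428, limma adjusted p = 0.0408), with -0.37 for KO1 and -0.38 for KO2. Its adjusted p ran from 0.0127 without PBS B to 0.344 with the exosome libraries alone, and it passed only in the fits without PBS B, WT A, WT B or KO2 C. No alternative turned its direction.

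Arhgdig had the smallest p of all genes and passed in each knockout alone. Arhgdig (gene 14570, chromosome 17, 26199183 to 26201350, GRCm38.p6) held 274 and 211 counts with WT exosomes and was listed at 0 in all 5 knockout and all 3 PBS libraries. The difference was -0.22 for KO1 and KO2 alike (knockout mean SE 0.0166, limma adjusted p = 0.00436, 0.00868 for KO1 and 0.0187 for KO2). Tns3, a tensin of focal adhesions, showed the same listing: 339.8 and 141 with WT and 0 in every other library (difference -0.22, SE 0.0243, limma adjusted p = 0.0408). The other two, the transcriptional repressor Zbtb18 and the spindle protein gene Knstrn, were listed at 0 in all 5 knockout libraries. With WT Zbtb18 held 149 and 187 and Knstrn held 192 and 115, and PBS reached at most 21.2 and 14.6. Their differences were -0.19 (SE 0.0221, limma adjusted p = 0.0432) and -0.18 (SE 0.0215, limma adjusted p = 0.0443), with KO1 and KO2 both lower. In all 7 genes were listed at 0 in the 5 knockout libraries and held at least 100 counts in both WT libraries: Me3, Rdh12, Zfp661 and the 4 just described. With only the exosome libraries in the fit all 4 missed the threshold, at adjusted p of 0.344 to 0.425. Over all alternatives the adjusted p of Arhgdig ran from 0.000461 to 0.344, and it passed in every fit that left out 1 library. Tns3 missed the threshold without any 1 of the PBS or KO1 libraries, at 0.079 to 0.137. Knstrn missed without any 1 of these or KO2 B, at 0.0616 to 0.145, and Zbtb18 without PBS B, PBS C, any KO1 library or KO2 B, at 0.0601 to 0.137. Without the C libraries all 4 missed, at 0.105 to 0.162.

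Larger in counts were genes that stayed below the threshold. Hltf, a helicase that helps replication pass DNA damage, held 1809 and 2046 with WT, 0, 0 and 0 with KO1, 0 and 319 with KO2 and 234, 387 and 486 with PBS. Only KO2 C among the knockouts held any counts, and no library overlapped WT (difference -0.56, SE 0.0776, limma adjusted p = 0.0787). Smc3, a subunit of the cohesin ring that holds sister chromatids together and shapes chromatin loops, stood at 6292 and 5851 with WT, 3043, 2419 and 2610.1 with KO1 and 3212 and 3115 with KO2. Ogt, the enzyme that attaches N-acetylglucosamine to intracellular proteins, stood at 10537 and 10009.6 with WT, 3900.4, 5311 and 6194 with KO1 and 6938 and 5126 with KO2. For both genes every knockout library was below both WT libraries, and PBS (1846 to 2907 for Smc3 and 5335 to 5991 for Ogt) overlapped the knockouts for Smc3 and lay inside their range for Ogt. The Golgi stacking protein gene Gorasp2 stood at 13009.9 and 12302 with WT, 6944, 6972 and 6551 with KO1 and 9756 and 10671 with KO2. Its KO1 libraries were lower than its KO2 libraries, with differences of -0.39 (SE 0.0523, limma adjusted p = 0.0727) and -0.15 (SE 0.0573, 0.662).

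The other lower genes of smallest p were weakly expressed or listed at 0 with knockout exosomes. Cdk1, the kinase that drives mitosis, held 695 and 152 with WT and 0 to 11.3 with the knockouts. Cep164, a protein of the appendages of the mother centriole, held 378 and 483 with WT and 0 to 58.3 with the knockouts. Dpysl3, which regulates the cytoskeleton of growing processes, held 846 and 942 with WT and 0 to 148 with the knockouts. In all 3 the groups stood apart, although WT A and WT B differed by several fold for Cdk1. Zfp661, Lrrc71, Ccdc157, Tarsl2 and Armh3 held between 257 and 1229 counts in the WT libraries and at most 166 in any knockout library. B4galt6, which makes lactosylceramide, stood at 202 and 508 with WT and 8.1 to 57 with the knockouts. Vtn, which encodes the adhesion protein vitronectin and in brain marks pericytes, held 239 and 496 with WT, 84.1 in KO1 A and 0 in the other knockout libraries. Pericyte and smooth muscle markers summed to 1587 in WT A and 8373 in WT B, 829 to 7210 with KO1 and 6188 and 2082 with KO2, and their part in the Vtn values was not tested. Of these 15 lower genes 1 passed the test, Ptgs1. KO1 and KO2 were both lower than WT in all 15, and the PBS mean was below the WT mean in all 15. These genes too were chosen by the p of the knockout mean, which favours such agreement. KO1, KO2 and PBS were all set against the same 2 WT libraries.

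**Figure D3:**
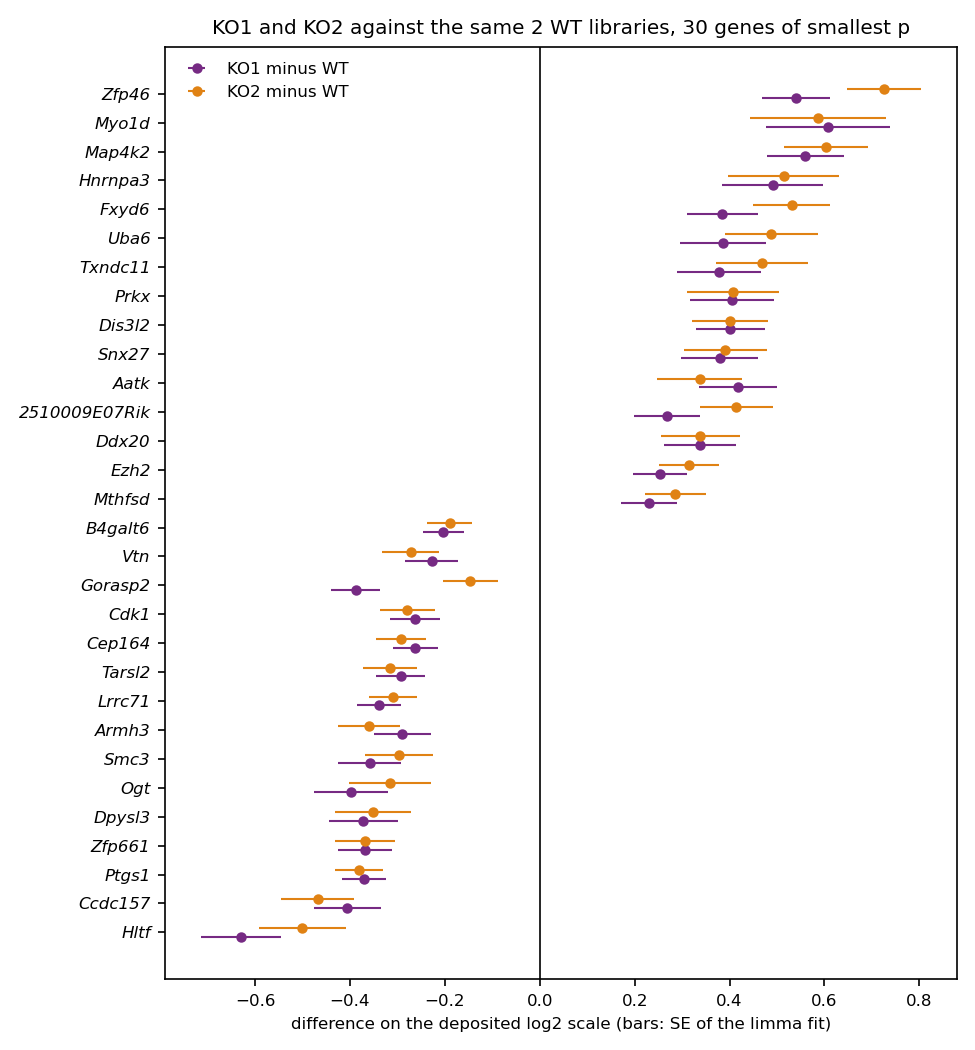
Differences of KO1 from WT (purple) and of KO2 from WT (orange) on the deposited log2 scale for the 15 higher and 15 lower genes of smallest p (points, with bars for the SE of the limma fit). Both points lie on the same side of 0 in each of the 30 genes, which the choice by the knockout mean favours, and Gorasp2 shows the widest gap between the knockouts on the lower side.

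Several genes of smallest p in KO1 or in KO2 rose in that knockout and barely or not at all in the other. Among the 5 higher genes chosen on KO1, Nqo2, a quinone reductase, went opposite ways. Nqo2 stood at 0 and 25.7 with WT, 474, 739 and 1253 with KO1 and 0 and 0 with KO2, so KO1 lay above WT in every library and KO2 was listed at 0 (differences 0.37 and -0.04). Prkcz, an atypical protein kinase C of cell polarity, held 221, 249 and 346 with KO1 and was listed at 0 in the WT and KO2 libraries, which puts KO2 at the WT level. Rnf24 held 1015, 450.5 and 923 with KO1, 20.2 and 0 with KO2 and 0 and 0 with WT, higher with both but barely so with KO2. On the KO1 side that was lower, Syngr1, a synaptic vesicle protein gene, stood at 330.4 and 700.2 with WT, 0, 0.2 and 1.7 with KO1 and 195 and 341 with KO2. The 5 lower genes chosen on KO1 were lower with KO2 too, and none of the genes chosen on KO1 passed (limma adjusted p of 0.0727 or more, Arhgdig being below the level of 100 counts used for this choice).

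Tgm2 was the most abundant of the genes chosen on KO2. It encodes tissue transglutaminase, which cross-links matrix proteins. Tgm2 stood at 9948 and 8301 with WT, 7888, 8435 and 6694 with KO1, 28558 and 21150.5 with KO2 and 10898, 15285 and 10255 with PBS. KO2 lay above every other library, while KO1 overlapped WT and was slightly lower on average. The difference from WT was 0.75 for KO2 (SE 0.118, limma adjusted p = 0.124) and -0.10 for KO1 (SE 0.107, 0.882), and the limma F test over both gave an adjusted p of 0.0772. Rhpn2 held 941 and 792 with KO2, 0, 0 and 5.6 with KO1 and 0 and 0 with WT. Fer, a tyrosine kinase of cell adhesion, went the other way, with 0 and 44.7 for KO2, 1117, 1057 and 1565 for KO1 and 1384 and 2168 for WT. On average both knockouts were higher for Rhpn2, KO1 barely so (differences 0.01 for KO1 and 0.42 for KO2). Both were lower for Fer, and in each gene KO1 lay closer to WT than KO2 did.

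Qrfpr, Mutyh and Cd33, called with KO2 or by the test of any difference, held few counts and differed between the knockouts. Qrfpr, a receptor for a feeding neuropeptide, rose with KO2: it held 229 and 376 there and was listed at 0 with WT and with KO1 (difference 0.25, SE 0.0251, limma adjusted p = 0.0294). Mutyh, a DNA glycosylase of base excision repair, held 194 and 249.5 with KO2 and was listed at 0 with WT and KO1 (limma F test adjusted p = 0.048). Cd33, a sialic acid receptor of myeloid cells, held 142 and 111 with KO2, 2.1 and 0.9 with WT and 0 with KO1 (limma F test adjusted p = 0.048). For Qrfpr and Mutyh KO1 stood at the WT level. For Cd33 KO2 was higher and KO1 only nominally lower. Both WT counts of Cd33 lay under the level of 3 reads (2.87 normalised counts), so KO1 cannot be told from WT there. Microglia markers summed to 1172 and 2019 with WT, 72 to 1762 with KO1, and 2090 and 973 with KO2, with 0 to 2 of 12 markers at 100 counts in each library, and their part in the Cd33 values was not tested.

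Interferon-induced genes stood lower with both knockouts on average, without a call. Of 27 measured genes of the type I interferon response with a mean of at least 100 counts, 24 were lower and 3 higher with the knockout mean, against 4617 lower and 4837 higher of 9454 genes at that level. Their median difference was -0.21 (KO1 -0.19, KO2 -0.25), and the median over all genes at that level was 0.00379. On log2 of counts plus 50, a scale closer to a fold change, the list's median was -0.98 (KO1 -0.81, KO2 -0.96). Of the genes of MHC class I antigen presentation, 16 of 17 were lower, with medians of -0.22 and -0.72 on those scales. None of these 44 genes passed limma, and 4 of them, all lower, had an unadjusted p under 0.05. Of all 9454 genes at that level, 498 higher and 382 lower genes had such a p. In sorted cells, fewer cells of a kind and less RNA per cell cannot be told apart.

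Irf7, the transcription factor that amplifies the interferon response, held 32219.9 and 12585 with WT, 25396, 7320.5 and 2801 with KO1, 16057 and 2477 with KO2 and 2219, 1848 and 853 with PBS. KO1 A and KO2 B stood inside the WT range, KO1 B below it, and KO1 C and KO2 C near PBS. Ifitm3, which blocks the entry of viruses into cells, held 176242 and 99669 with WT, 154094, 74447 and 40741 with KO1 and 100620 and 45959.8 with KO2, and its 2 lowest values were again those of KO1 C and KO2 C. Reads of Ifitm3 may be split with its close relatives. Stat2, a partner of Irf9 in the complex that switches on interferon genes, was the only member whose groups did not overlap: 6363 and 5004 with WT, 2254, 2327 and 0 with KO1 and 1973 and 1717 with KO2 (difference -0.53, SE 0.178, limma adjusted p = 0.554). Gbp2, an interferon-induced GTPase, held 7154 and 2092 with WT, 754, 1255 and 128 with KO1 and 2854 and 1909 with KO2, with WT A far above the rest and KO2 B above WT B. Psme1, a proteasome activator subunit of antigen processing, held 12038 and 6766 with WT, 5708, 5719 and 4270.5 with KO1 and 6807 and 4724 with KO2, with KO2 B just above WT B. H2-K1, a classical MHC class I heavy chain with near-identical relatives, held 24892 and 18659 with WT, 20351, 14484 and 9534 with KO1 and 12625 and 8972 with KO2. KO1 and KO2 were both lower than WT on average in all 6 genes.

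Values of the interferon list differed by letter. Against the mean of WT A and WT B, the list's median on log2 of counts plus 50 was 0.43 in WT A, -0.43 in WT B, 0.33 in KO1 A, -1.004 in KO1 B, -1.60 in KO1 C, -0.34 in KO2 B and -1.71 in KO2 C. The PBS libraries stood at -1.60, -2.10 and -2.37. Thus the C libraries lay near PBS, while KO1 A and KO2 B lay inside the span of the WT libraries. Within letter A, 14 of 27 members were below WT in KO1 (51.9%, against 46.2% of all genes at 100 counts). Within letter B, 24 of 27 were below WT in KO1 (88.9%, against 48.5%) and 10 of 27 in KO2 (37.0%, against 49.1%). The antigen presentation list gave 9, 15 and 5 of 17. On the deposited scale the interferon median was -0.11 without WT A, -0.41 without WT B, -0.34 without KO2 B, -0.11 without KO2 C, and -0.07 when fitted on letters A and B alone. Those for antigen presentation were -0.09, -0.43, -0.28, -0.12 and -0.09. Choroid plexus and ependyma markers were also low in the C libraries, summing to 233540 and 205190 with WT, 201747, 359991 and 6727 with KO1, 312614 and 22988 with KO2, and 965 to 7390 with PBS. Of these 12 markers 8 and 9 reached 100 counts in the WT libraries, 7, 8 and 3 in KO1 and 10 and 3 in KO2. The part of those cells in the interferon values was not tested.

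**Figure D4:**
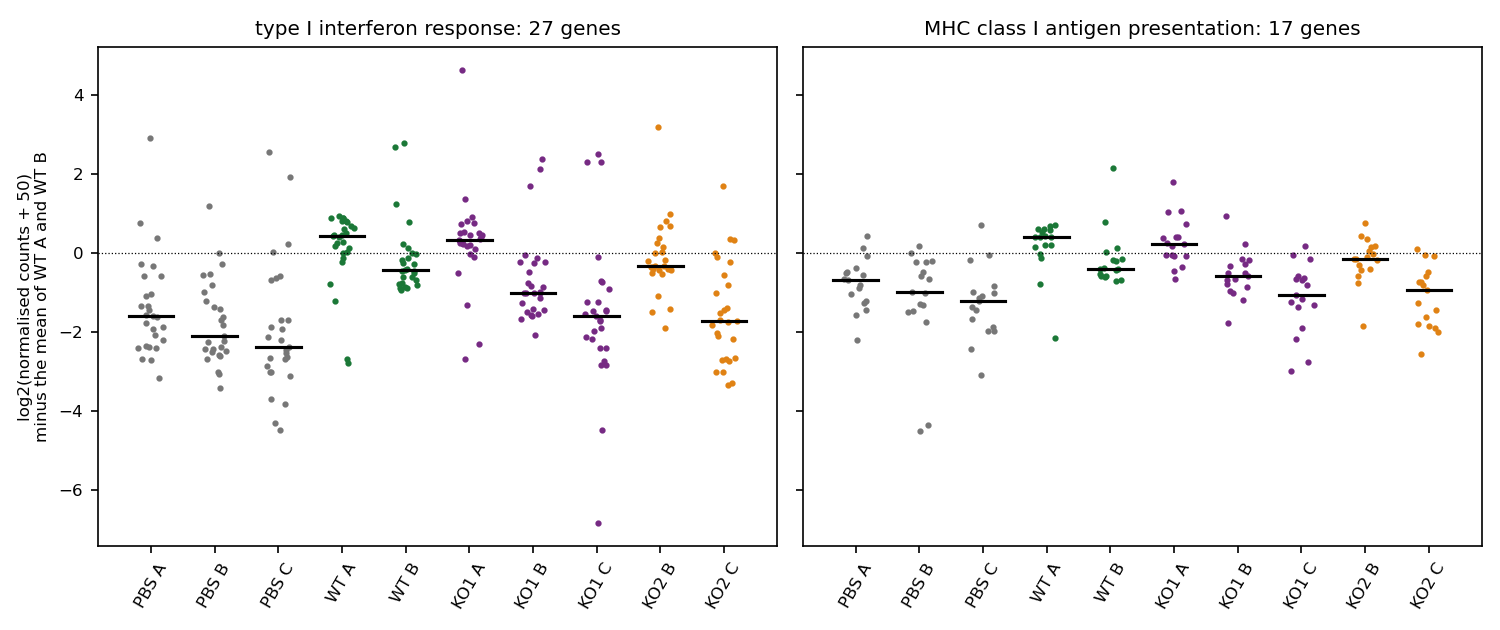
Each gene of the type I interferon list (left, 27 genes) and of the MHC class I list (right, 17 genes) in each library, as log2 of normalised counts plus 50 minus the mean of WT A and WT B (points, with a line at the median). The medians of KO1 A and KO2 B lie within the span of the WT libraries, and those of KO1 B, KO1 C and KO2 C lie below it.

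The promoters of these genes were searched for GAAANNGAAA on both strands, the core of an element common in promoters of interferon-induced genes. RefSeq windows on GRCm38.p6 run from 250 bases before to 50 after a gene's start. The motif was found in 15 of the 24 interferon list genes with a window (62.5%), in 4 of 15 of the antigen presentation list (26.7%), in 3.99% of all 27025 genes with a window and in 3.86% of varying genes. The same search found it in 2 of 13 ribosomal protein genes (15.4%) and in 0 of 13 genes of NF-kB subunits and targets. Windows of Irf7 and H2-K1 held no such match. Stat2 is shown because its groups did not overlap, and Gbp2 and Psme1 as a strong and a mild example of the lower genes. Capitals mark the match, and each sequence is written 5′ to 3′ on the strand of the gene.
Stat2, chr10:128270248-128270547, + strand: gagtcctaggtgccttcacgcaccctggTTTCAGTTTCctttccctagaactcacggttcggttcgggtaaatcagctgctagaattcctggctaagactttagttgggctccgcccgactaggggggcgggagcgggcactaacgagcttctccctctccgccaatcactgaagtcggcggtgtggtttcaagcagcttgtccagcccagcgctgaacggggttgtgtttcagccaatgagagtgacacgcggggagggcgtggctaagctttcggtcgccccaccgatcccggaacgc
Gbp2, chr3:142620413-142620712, + strand: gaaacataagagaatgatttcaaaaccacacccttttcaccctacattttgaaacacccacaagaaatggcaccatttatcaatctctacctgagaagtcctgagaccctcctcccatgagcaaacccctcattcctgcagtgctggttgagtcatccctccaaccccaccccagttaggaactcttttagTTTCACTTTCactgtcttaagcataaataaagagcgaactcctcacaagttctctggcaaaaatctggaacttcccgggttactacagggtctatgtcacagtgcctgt
Psme1, chr14:55578244-55578543, + strand: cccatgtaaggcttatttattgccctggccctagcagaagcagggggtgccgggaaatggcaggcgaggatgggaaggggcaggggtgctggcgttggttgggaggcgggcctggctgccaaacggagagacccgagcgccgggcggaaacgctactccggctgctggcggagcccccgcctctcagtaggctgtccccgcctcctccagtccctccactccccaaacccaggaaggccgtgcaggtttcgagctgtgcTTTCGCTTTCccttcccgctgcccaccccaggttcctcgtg
A match describes the window and does not show binding in these cells.

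Cytokine genes gave the 1 call within a list, against 6 calls among all 14164 varying genes (0.0424%). Of 14 genes of cytokines and prostaglandin synthesis at 100 counts, 11 were lower and 3 higher, with a median of -0.08, and Ptgs1 fell. Csf3, which encodes the growth factor G-CSF, held 114174 and 63846 with WT, 86701, 70688 and 18855 with KO1 and 60346 and 39298 with KO2, and KO1 C was the lowest. The chemokine gene Cxcl2, which attracts neutrophils, held 31301 and 24532 with WT, 13383, 17098 and 5221 with KO1 and 25085 and 9828 with KO2, with KO2 B inside the WT range. The adhesion receptor Icam1, which leukocytes bind on their way through the vessel wall, held 31106 and 21574 with WT, 15605, 22925 and 7232 with KO1 and 19094 and 10031 with KO2. KO1 and KO2 were both lower on average for the 3 genes, and none passed (limma adjusted p of 0.619 to 0.803). The median of the cytokine list turned to 0.03 when all C libraries were dropped, and likewise without KO2 C alone.

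Barrier genes split between higher and lower members. Of 11 junction genes 6 were higher and 5 lower, and of 14 blood-brain barrier transporters 12 were higher and 2 lower, with medians of 0.02 and 0.08 and no call. Of all 9454 genes at 100 counts, 4837 were higher and 4617 lower. Within letters, 7 of the 14 transporters were below WT in KO1 A, 7 in KO1 B and 4 in KO2 B. Their median on log2 of counts plus 50 against the WT mean was -0.24, -0.02 and 0.66 in KO1 A, B and C. In KO2 B and C it was 0.38 and 0.40. Occludin (Ocln), a tight junction protein, held 2239 and 1683 with WT, 2874, 3166 and 4056 with KO1 and 6848 and 4275 with KO2. All knockout libraries lay above both WT libraries, KO2 above WT by more than KO1, and PBS stood at 3716 to 5894 (difference 0.30, SE 0.0875, limma adjusted p = 0.471). Tricellulin (Marveld2), which seals the points where 3 cells meet, held 3370.4 and 2220.2 with WT, 1702, 926 and 2719.6 with KO1 and 871 and 121 with KO2, lower on average with both knockouts, with KO1 C inside the WT range and KO2 below it. The drug pump genes Abcb1a and Abcb1b, close paralogs whose reads may be split, lay on opposite sides of WT. Abcb1a held 4751 and 5069.7 with WT, 10875, 9575 and 10095 with KO1 and 10274 and 6254 with KO2, and Abcb1b held 2497 and 3492 with WT, 298, 1632 and 1022 with KO1 and 2363 and 1252 with KO2. No knockout library overlapped WT in either, with Abcb1a higher and Abcb1b lower in both knockouts (limma adjusted p = 0.352 and 0.625). Slc16a1, the lactate carrier MCT1, held 942 and 3755 with WT and 2961 to 5614 with the knockouts, higher on average with both, against 7670.4 to 9023 with PBS. Slc12a2, a sodium, potassium and chloride cotransporter, held 9124 and 14591 with WT, 2532, 5679 and 4551 with KO1 and 8328 and 4552 with KO2, below WT in every library (difference -0.48, SE 0.13, limma adjusted p = 0.452).

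Several receptors and ligands of vessel growth and guidance lay above WT, and none passed. Of 19 genes of the VEGF, angiopoietin and tip cell list 12 were higher and 7 lower, and of 13 semaphorin, plexin, ephrin and slit genes 7 were higher and 6 lower, against 4837 and 4617 of all 9454 genes at 100 counts. Flt4, the receptor VEGFR3, ranged from 13616 to 16259 with the knockouts against 13176 and 10109 with WT, above it in every library of KO1 and KO2. Kdr, the main VEGF receptor, held 4846 and 12544 with WT and 10499.5 to 17757 with the knockouts, higher on average with both, with KO1 overlapping WT and KO2 above it. Acvrl1, the endothelial BMP receptor ALK1, held 7808 and 5402 with WT, 10034, 11469.9 and 9117 with KO1 and 10289 and 8396 with KO2, above WT in every library, while 14 of 21 genes of its TGF-beta and BMP list were lower. Tgfbr1 held 407 and 536 with WT, 3490, 2318 and 1772 with KO1 and 418 and 1319 with KO2, so both were higher on average and KO2 B overlapped WT. Sema6d, a semaphorin, held 3939.9 and 3099 with WT, 5255, 7516 and 8149.5 with KO1 and 8099 and 7769 with KO2 (difference 0.36, SE 0.0777, limma adjusted p = 0.283). The ephrin gene Efnb1 held 5.3 and 420.4 with WT, 866, 684 and 1090.3 with KO1 and 1017 and 1886 with KO2. In both guidance genes each knockout library exceeded both WT libraries, KO1 and KO2 alike.

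Regulators of vessel identity and growth lay on both sides of WT. Tcf7l1, a repressor of Wnt target genes, held 1402 and 896 with WT, 153, 166 and 273 with KO1 and 347 and 386 with KO2, and PBS stood at 233 to 309. The transcription factor Mecom of arterial endothelium held 1782 and 1466 with WT, 3.1, 727 and 0 with KO1 and 681 and 509 with KO2. Thbs1, which encodes the angiogenesis inhibitor thrombospondin 1, held 2302 and 4581 with WT, 1432, 649 and 0 with KO1 and 1246 and 0 with KO2. The groups did not overlap in these 3 genes, KO1 and KO2 were both lower, and the limma adjusted p lay between 0.417 and 0.575. Sox17, a transcription factor of arterial and Wnt-responsive endothelium, ranged from 4062 to 8375 against 2900.3 and 4488 with WT, higher on average with both, with KO1 overlapping WT and KO2 above it. Map3k3, a kinase of the MEK5 and ERK5 route, ranged from 8504 to 10471 against 2732 and 8502, and Hk1, the first enzyme of glycolysis, from 7186 to 11211 against 6302 and 5493. Both knockouts exceeded WT for Map3k3 and Hk1, with WT A well below all others for Map3k3.

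Hyaluronan genes were listed because CEMIP acts on this polymer. Of 9 measured hyaluronan genes at 100 counts 6 were higher and 3 lower, and none passed. That split differed by WT library: 3 of 9 were below WT in KO1 within letter A, and 6 of 9 in KO1 and 7 of 9 in KO2 within letter B. The list's median difference was 0.04, and it was -0.12 without WT A and 0.18 without WT B. Hyal2, a hyaluronidase at the cell surface, held 1809.9 and 1731 with WT, 1224, 1492 and 934 with KO1 and 807 and 1169 with KO2. Stab1, a scavenger receptor of the stabilin family, held 8309.8 and 6763 with WT, 18987, 9062 and 8957 with KO1 and 9693 and 10917 with KO2. Hyal2 was lower and Stab1 higher in every knockout library, by -0.13 (SE 0.0658) and 0.24 (SE 0.145), with limma adjusted p of 0.704 and 0.777. Of 18 basement membrane and matrix genes 13 were higher, with a median of 0.19 (KO1 0.10, KO2 0.20), which was 0.09 with the C libraries left out. Itga6, a laminin receptor subunit, held 4968 and 5299 with WT, 6216, 7020 and 4998 with KO1 and 9967 and 7875 with KO2, and the laminin gene Lamb2 held 0 and 2747 with WT, 2409, 1994 and 2069.9 with KO1 and 2751 and 4453 with KO2. Both were higher on average with KO1 and with KO2, and in both genes KO2 lay above WT and KO1 overlapped it. Plau, the urokinase plasminogen activator, held 23922 and 13575 with WT, 19970.3, 10452 and 1651 with KO1, 576 and 2748 with KO2 and 624, 1379.5 and 606 with PBS. KO2 and KO1 C lay far below WT and closer to PBS, while KO1 A lay between the WT libraries, so both knockouts were lower on average (difference -0.90, SE 0.299, limma adjusted p = 0.533). Ttr, the thyroid hormone carrier made by the choroid plexus, held 186101 and 168508 with WT, 164800, 276884 and 2171 with KO1 and 253151 and 17389 with KO2, lower on average with both knockouts. Its mean difference of -1.03 (SE 1.1) lay in the C libraries and turned to 0.36 without them.

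The 20 ribosomal protein genes had a median of -0.05, with 13 lower. Rps18 (8874 and 7616 with WT, 6147 to 7089 with the knockouts) and Rpl7 (9379.6 and 9434 with WT, 4904 to 8516 with the knockouts) were below WT in every library of KO1 and KO2, and both have many processed copies that can share reads. Of 12 tetraspanin and exosome machinery genes 9 were lower, and Cd82, a tetraspanin, held 26575 and 25252 with WT, 19640.3, 24122 and 16298 with KO1 and 16898 and 20223 with KO2. No Cd82 value of either knockout reached WT. Across the 38 pathway lists, which held 621 distinct measured genes, Ptgs1 was the single call. Of all 14164 varying genes 6 were called (0.0424%). On log2 of counts plus 50 the interferon list had the lowest median in each knockout. The next lowest was that of cytokines in KO1 (-0.71) and of antigen presentation in KO2 (-0.79). The highest was that of guidance genes in KO1 (0.64) and of basement membrane genes in KO2 (0.47). Against the WT library of the same letter, the interferon median was -0.04 in KO1 A, -0.71 in KO1 B and 0.19 in KO2 B.

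**Figure D5:**
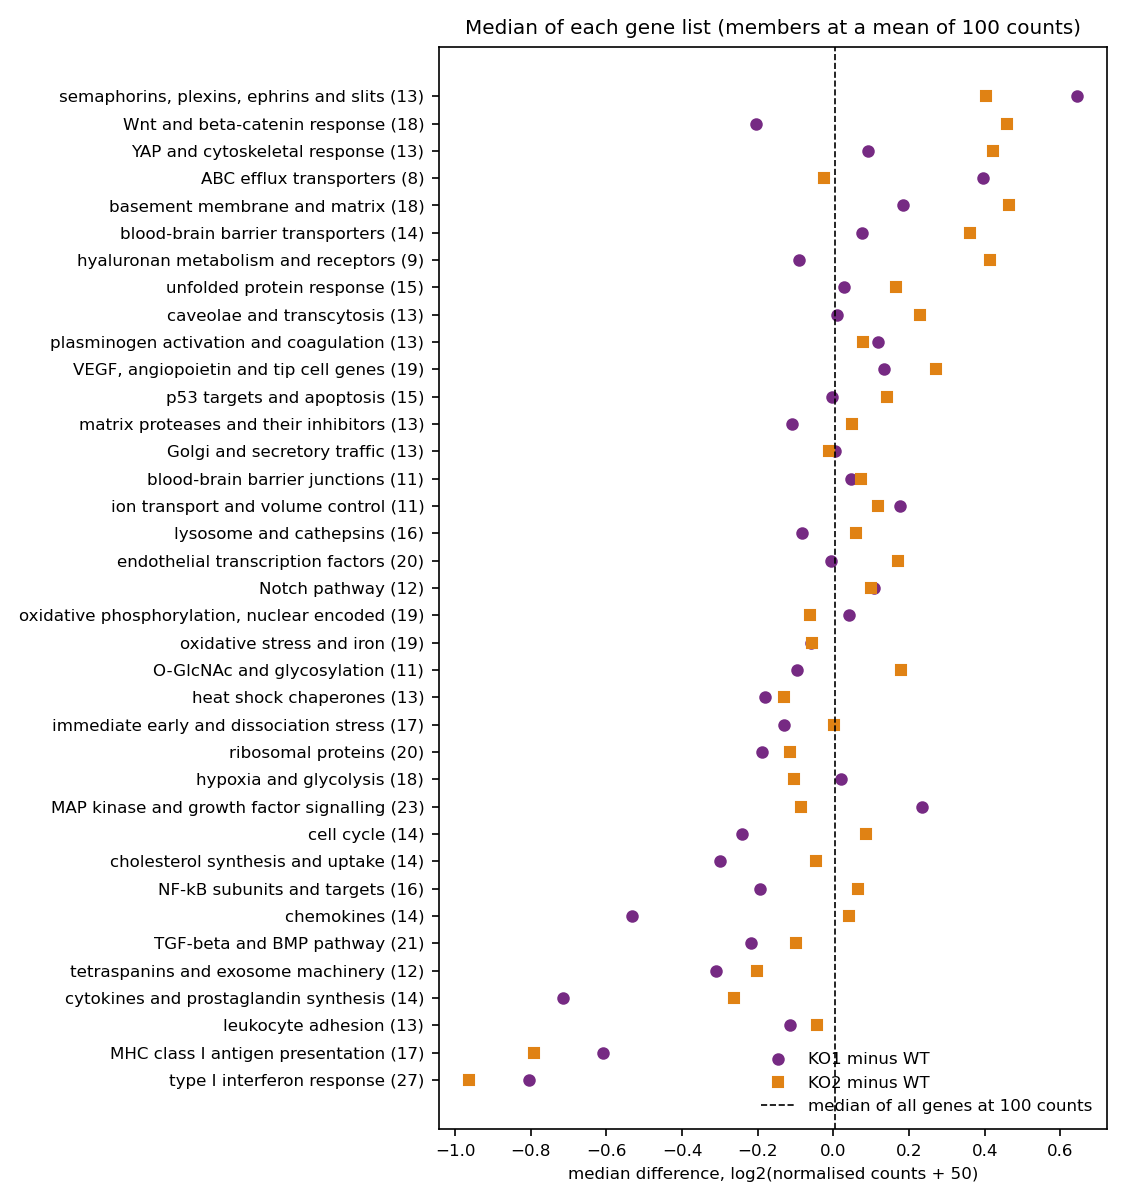
Median difference from WT of 37 of the 38 gene lists on log2 of normalised counts plus 50 for KO1 (purple circles) and KO2 (orange squares), with the number of members at a mean of 100 counts in brackets and the median of all such genes as a dashed line. The interferon list lies lowest in both knockouts, at -0.81 for KO1 and -0.96 for KO2. Against the WT library of the same letter its median was -0.04 in KO1 A, -0.71 in KO1 B and 0.19 in KO2 B.

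The authors' deposited table lists 362 endothelial genes from a likelihood ratio test of the groups. Its fold change was matched here to a known contrast: computed from recovered counts in a model with groups and letters, KO2 minus WT fell within 0.05 of the authors' log2 value in 97.5% of 240 genes, with a median gap of 0.000278. The other 5 contrasts in that model reached at most 10.4%, and KO2 minus WT without letters 18.3%. In the authors' deposited table that fold change lay above 0 for 234 genes and below for 128, and it exceeded 2 of its standard errors in 143 and 71. All 5 knockout libraries lay above both WT libraries in 107 of the 362 genes, below in 33, and overlapped or straddled WT in 222. Over all 14164 varying genes 492 (3.47%) lay above and 551 (3.89%) below. The 362 genes came from a test on the same libraries, which favours such separation. Of the 6 limma calls 1, Zfp46, is listed. In the authors' deposited table the log2 fold change was 1.56 for Tgm2, 1.62 for Ocln, 0.82 for Abcb1a, -0.95 for Smc3 and -2.68 for Plau, each in the direction of KO2 minus WT above. For Ttr it was 1.47 in the authors' deposited table, against a difference of -1.02 for KO2 without a term for the letters.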

How the data were processed

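The authors deposited log2 values after a variance-stabilising transformation. Per the submitters' processing notes FastQC 0.11.7, Trimmomatic 0.38, Salmon 0.10.0, DESeq2 1.18.1 and GRCm38.p6 were used, with no order given. The authors' deposited table gives a mean normalised signal (the mean count), a log2 fold change, a standard error and test statistic (score columns) and p-values, without naming the contrast. Normalised counts were recovered here by inverting the transformation from its floor of 13.2814, and matched the authors' deposited mean signal at a ratio of 1.0000 over 362 genes.

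Differences were fitted on the deposited log2 values of 14164 varying genes with limma 3.58.1 in R 4.3.3 (trend on), over all 10 endothelial libraries (3 PBS, 2 WT, 3 KO1, 2 KO2), with Benjamini-Hochberg adjustment at 0.05. The fit was tested on simulated data. Contrasts set WT against the average of both knockouts and against each of them alone, with an F test over both. KO1 and KO2 share the 2 WT libraries.

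Named genes hold a mean of at least 100 counts over the 7 exosome libraries: the 15 higher and 15 lower of smallest p for the knockout mean, 5 each way for KO1 and for KO2, 5 each way of largest difference in the authors' table, 2 of smallest p per list, and sort markers. Any called gene is named at any level. Members and lists were chosen with earlier results of these data known. Alternatives changed the filter, the pseudocount (5 or 50), the scaling, the libraries in the fit, the variance model and the block of letters. Some items are not reported here, and 1 list is not drawn.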

Additional observations from a re-analysis of the deposited data

How the results depend on the processing

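The knockout mean gave 6 calls, KO1 1, KO2 3 and the F test 5, and 1043 genes had knockout libraries all above or all below both WT libraries. In that order of tests, a filter at 1 log2 unit above the floor gave 0, 0, 0 and 1 calls (57, 47, 56 and 51 genes at an unadjusted p under 0.05 in limma) and 108 non-overlapping genes, with 1068 genes tested. A mean of at least 100 counts gave 2, 0 (768 unadjusted), 1 and 1. Both calls of the knockout mean were higher genes there, and only 1 of them, Zfp46, was among the 6. On log2 of counts plus 50 KO1, KO2 and the F test gave 7, 10 and 11, and the same 3 values after rescaling by the median ratio. On log2 of counts plus 5 the tests gave 15, 8, 16 and 13. With the exosome libraries alone all gave 0 (588, 494, 571 and 487 unadjusted). Without the C libraries they gave 0, 0 (1144 and 784 unadjusted), 128 and 85, with 2153 non-overlapping genes. That fit and those without KO2 B or KO2 C hold a single KO2 library, assumed to vary like the others. Fits without WT A or WT B likewise hold a single WT library. With no mean-variance trend KO1, KO2 and the F test gave 2, 1 and 1. The robust variance model gave 2 for the knockout mean and 0 for the F test (913 unadjusted). Leaving out 1 library gave 1 to 152, 0 to 145, 0 to 186 and 0 to 173 calls, and 1359 to 4149 non-overlapping genes.

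With the letters as a replicate block all 4 tests gave 0 (983, 883, 992 and 846 unadjusted), and also on log2 of counts plus 50 (922, 806, 875 and 781), a fit chosen after seeing the data. Deviations of same-letter exosome libraries correlated at 0.0227 to 0.236, all positive, and those of different letters at -0.236 to 0.12. In a group of 2 libraries the deviations are opposite by construction, so these values cannot settle whether the letters pair libraries. No label says that they do. With letters in the model, KO2 minus WT fell within 0.05 of the authors' log2 value in 97.5% of 240 genes. Without letters it did so in 18.3%, so the authors' model appears to have held the letters. The block was kept here as an alternative beside the main fit. Of 83 named genes 1 reversed: Ttr, at -1.03, was 0.36 without the C libraries and 0.37 with the block on log2 of counts plus 50. The causes were not tested. WT and KO2 hold 2 libraries each, which limits the precision of every value.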
